A study of Mus musculus with 45 samples.

Results

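The genes described here encode the perilipins, CIDE proteins and FITM proteins, which coat, fuse and form lipid droplets. They were chosen by name, as Plin2, Plin3, Plin4, Plin5, Cidea, Cideb, Cidec, Fitm1 and Fitm2, and make up 9 of the 21631 protein-coding genes considered, those of the autosomes and chromosome X. A REV-ERBα site was counted for a gene when the summit of a peak lay inside the gene's span in the mm10 build or within 50 kb of it. By this rule the genes had 0 of the 36 peaks found at zeitgeber time 22 (ZT22) and 38 of the 27929 peaks found at ZT10, hours 22 and 10 of the light-dark cycle.

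The study mapped REV-ERBα, a nuclear receptor of the circadian clock, by chromatin immunoprecipitation with sequencing of mouse liver. Both groups used here were livers of mice homozygous for a 3HA epitope tag on the endogenous receptor (REV-ERBa3HA/3HA), given no AAV vector and immunoprecipitated with anti-HA magnetic beads, with 4 samples at ZT22 and 4 at ZT10. Every allele of the receptor in both groups thus carried the tag, and no age of the animals is given in these sources. Since the 4 samples of each time were pooled by the authors into 1 peak list, no value had a spread between replicates and no test was run between the times. The other 37 of the 45 samples, which include input chromatin and anti-HA on untagged B6-WT liver, were not analysed here, and dependence of any site on the tag was not tested.

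Lipid droplets store triglyceride and cholesteryl ester in hepatocytes between meals. Perilipins cover the droplet and set how far lipases reach the fat, CIDE proteins let fat pass between touching droplets so that large ones grow, and FITM proteins act in the membrane of the endoplasmic reticulum where droplets bud. REV-ERBα represses genes through the corepressor NCOR1 and the deacetylase HDAC3, and its level in liver is high late in the light phase and low late in the dark phase.

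The DNA just before the starts of Plin2 and Plin5 is shown because theirs were the promoter windows in which a motif searched was found, and that of Cideb because a ZT10 summit lay inside it. A ZT10 peak covered each stretch whole, as it did at Plin3, Plin4, Fitm2 and the downstream start of Cidec, which are not shown. The sequences are from RefSeq (GRCm38.p6, the coordinates of mm10), all on the minus strand, and each is printed 5′ to 3′. Capitals mark the hexamer AGGTCA, to which nuclear receptors such as REV-ERBα bind, its extended forms TAGGTCA and TGGGTCA on either strand, and the E-box CACGTG, to which clock activators bind. The Plin2 stretch is chr4:86670058-86670309. The Plin5 gene has 2 annotated starts, and the bases before its upstream start are chr17:56117549-56117798 and those before its downstream start chr17:56117299-56117498. The Cideb stretch is chr14:55758425-55758674.
Plin2: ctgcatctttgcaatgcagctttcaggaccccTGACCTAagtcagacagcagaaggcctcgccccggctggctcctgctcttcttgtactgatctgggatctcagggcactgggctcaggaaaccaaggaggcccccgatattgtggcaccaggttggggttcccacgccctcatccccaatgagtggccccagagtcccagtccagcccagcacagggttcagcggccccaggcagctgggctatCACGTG
Plin5, upstream start: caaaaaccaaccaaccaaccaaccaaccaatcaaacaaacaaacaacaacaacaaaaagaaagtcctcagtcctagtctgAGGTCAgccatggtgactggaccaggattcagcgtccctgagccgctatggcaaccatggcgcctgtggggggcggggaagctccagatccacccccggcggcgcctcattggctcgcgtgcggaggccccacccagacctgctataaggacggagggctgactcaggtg
Plin5, downstream start: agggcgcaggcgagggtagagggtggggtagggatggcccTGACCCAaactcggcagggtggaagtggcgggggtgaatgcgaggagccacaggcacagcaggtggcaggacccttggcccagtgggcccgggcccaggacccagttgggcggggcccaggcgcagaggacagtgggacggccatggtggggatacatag
Cideb: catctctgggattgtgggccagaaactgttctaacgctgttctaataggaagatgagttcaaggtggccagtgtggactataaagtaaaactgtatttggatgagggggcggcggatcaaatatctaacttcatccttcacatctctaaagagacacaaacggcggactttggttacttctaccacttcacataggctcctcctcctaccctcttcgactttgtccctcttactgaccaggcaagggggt

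In the Plin2 stretch the letters TAGGTCA, read on the opposite strand, began 218 bases before the start, and CACGTG began 4 bases before it and ran across it. At Plin5, AGGTCA lay 170 bases before the upstream start and 200 bp from the ZT10 summit, while TGGGTCA, on the opposite strand, lay 160 bases before the downstream start and 60 bp from the same summit. A further AGGTCA began 14 bases after the downstream start. No motif searched was found in the window of Cideb. Promoter windows ran from 250 bases before to 50 after a start, and RefSeq gave 10 of them for 8 of the 9 genes. The hexamer stood in 3 of these 10 windows, those of Plin2 and Plin5, and in 14.6% of the 21045 windows of all protein-coding genes. The extended forms, of which TAGGTCA contains the hexamer, stood in 2 of 10 and in 5.84%. The E-box stood in 1 of 10 and in 7.91%. Among the 7122 windows wholly under a ZT10 peak the shares were 13.2% for the hexamer, 5.34% for the extended forms and 11.8% for the E-box. Direct repeats of the hexamer with 1 or 2 bases between were found in 0 of 10 windows, and in 0.0475% and 0 of all windows. A match to these letters is a description of the window, and sequence beyond the promoter windows was not used here.

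At ZT22 no summit lay within 50 kb of any of the 9 genes, and 0 of their 38 ZT10 sites were overlapped by a ZT22 peak. Among all 21631 genes, 0.157% had a ZT22 summit within that reach, so a count of 0 among 9 is near the background. ZT22 peaks lay no nearer than 4.10 Mb to a member on any chromosome that held both. The lists hold no peak with a fold below 4, so weaker binding at ZT22 would not be listed, and its absence cannot be read from them. A depth at ZT22 relative to ZT10 of 0.97 was estimated from the folds of the 36 ZT22 peaks, assuming a common control. The search covered only values near equal depth, and counts came out whole at 72.2% of those peaks. Depth itself was thus not measured, and a larger difference could not have been found. All further values are from ZT10.

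At ZT10 all 9 genes had a summit within 50 kb, against 70.5% of all genes. With a reach of 10 kb 8 of 9 had one, against 54.5% of all genes, and Cidea was the gene without. With summits inside the span only, 4 of 9 had one (Plin3, Plin5, Cidec and Fitm2), near the 36.2% of all genes. At 100 kb all 9 had one, against 78.6% of all genes. That background also holds genes silent in liver, and no comparison with liver-expressed genes alone was made.

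**Figure D1:**
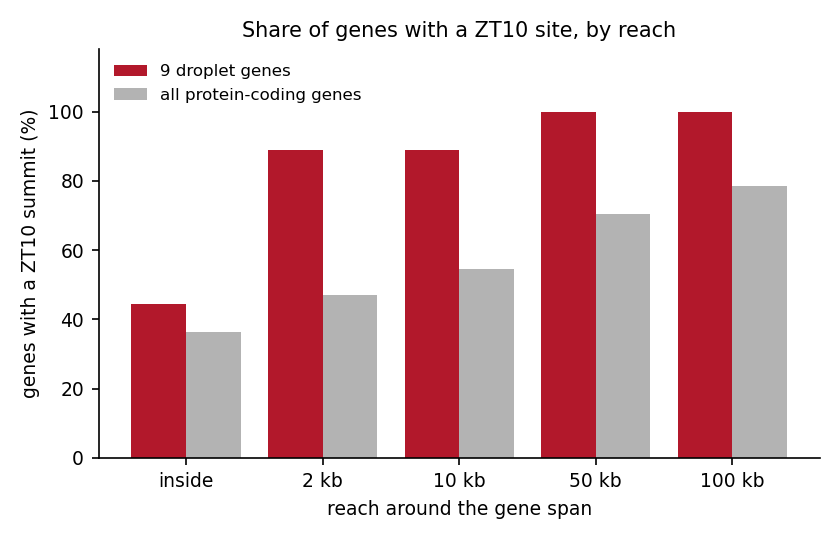
Share of genes with a ZT10 summit (percent, vertical axis) inside the gene span or within 2, 10, 50 or 100 kb of it (horizontal axis). Red bars are the 9 droplet genes and grey bars all 21631 protein-coding genes. The shares were 44.4% and 36.2% inside spans and 88.9% and 47.1% at 2 kb.

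Of the 8 genes with an annotated start, 5 had a summit within 1 kb of it, against 34.5% of the 17274 genes with one. These were Plin5 at 33 bp, Cideb at 109 bp, Fitm2 at 265 bp, Cidec at 365 bp and Plin3 at 621 bp. Plin2 followed at 1176 bp, Fitm1 at 2701 bp and Plin4 at 7733 bp. A ZT10 peak covered the whole promoter window at 7 of the 8, against 34.9% of all genes with a window. Fitm1 was the exception, and at Cidec the window of the downstream start was covered and that of the upstream start was not.

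The 38 sites had folds over the local background from 4.10 to 22.6 with a median of 6.76, close to the median of 6.81 over all ZT10 peaks. Folds of at least 10 were found at 9 of 38 sites (23.7%), against 7536 of the 27929 peaks in all. Folds below 5 were found at 13 of 38 (34.2%), against 24.3% of all peaks. Summits held 85 to 488 fragments, solved for each peak from its fold and its −log10 p, with a median of 143 against 149 over all peaks. A protein-coding gene other than a member lay nearer to the summit at 28 of the 38 sites, so most sites in reach of a droplet gene are at least as close to a neighbour. Which gene a site acts on was not tested.

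**Figure D2:**
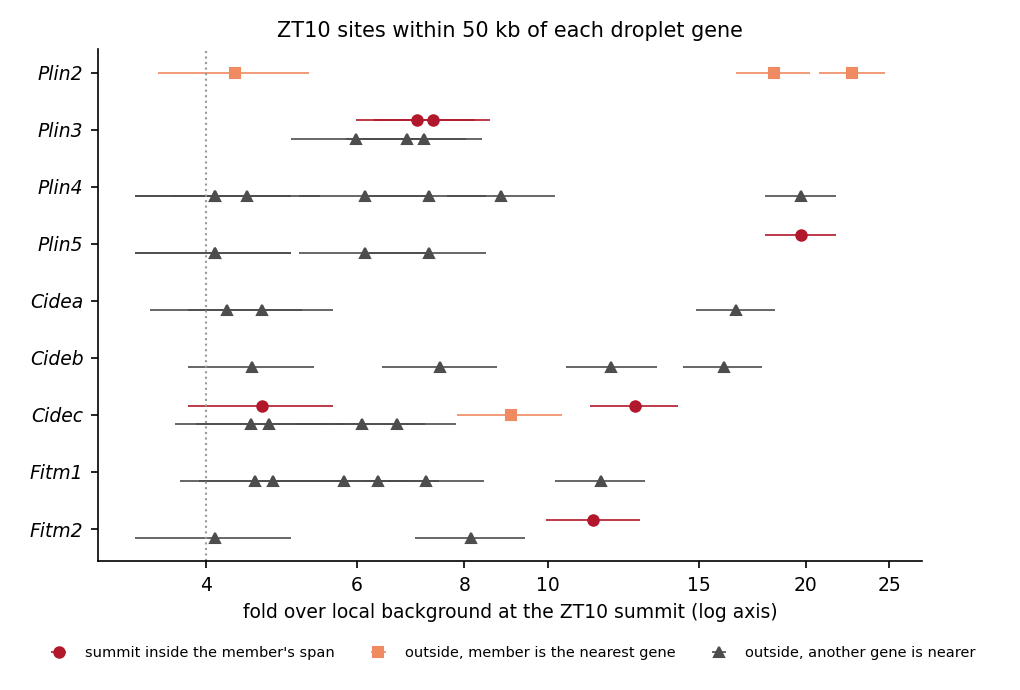
Fold over the local background (horizontal log axis) of every ZT10 site within 50 kb of each gene. Circles are sites inside the span, squares sites outside it with the member as the nearest gene, and triangles sites with another gene nearer. Bars are 95% intervals for counting error, and the dotted line marks a fold of 4, below which no peak was listed. Plin2 has the highest site at 22.6, and no site of Plin3 is above 7.36.

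Plin2 encodes the perilipin that coats most droplets of the hepatocyte. It had 3 sites, all upstream and all with Plin2 as the nearest gene. The strongest of all 38 sites lay 20295 bp upstream of its start, in a peak of 3.44 kb (chr4:86688407-86691844), with a fold of 22.6 (488 fragments, 95% interval of the fold 20.7 to 24.7). A second strong site lay 1176 bp upstream, in a peak of 6.11 kb that covered the start (chr4:86667122-86673229), with a fold of 18.3 (16.6 to 20.2). Their intervals do not overlap, so the remote site was the stronger beyond counting error. A weak site 24926 bp upstream had a fold of 4.33. No summit lay inside the 43.3 kb span that RefSeq gives the gene.

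Plin3 encodes a perilipin made in most tissues, which moves between the cytosol and small new droplets. Its 5 sites were of even and modest strength. A site 621 bp downstream of the start, at chr17:56289021-56291608, had a fold of 7.36 (6.28 to 8.58), and a site near the far end of the gene had 7.04. The others had folds of 7.18 (nearest gene Fem1a), 6.86 (Ticam1) and 5.98 (inside Kdm4b). Plin3 was the only member whose strongest fold was below the median of all genes with a site in reach, and it stood at percentile 31.8 of them.

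Plin4 encodes a perilipin made mainly in adipose tissue and muscle, and Plin5 encodes one of oxidative tissues that ties droplets to mitochondria and holds back lipolysis. The 2 genes lie 1649 bp apart on chromosome 17 and shared 5 sites, so they are not independent. All 5 sites of Plin5 were among the 7 of Plin4. The strongest was a peak of 17.4 kb at chr17:56108096-56125534 with a fold of 19.8 (426 fragments, 17.9 to 21.7) and its summit 33 bp downstream of the upstream start of Plin5, in the stretch between the printed sequences. That peak also covered the promoter window of Plin4, whose start lay 7733 bp from the summit. Of all ZT10 peaks, 0.118% were at least as wide, and the median width was 1679 bp. The other shared sites had folds of 7.27 and 6.12, both inside Ubxn6, and of 4.10 inside Hdgfl2 and 4.10 inside Sema6b. Within the reach of Plin4 alone were 2 sites in Chaf1a, with folds of 8.83 and 4.47. Plin3 lies 161 kb from Plin5 and shared no site with either at this reach.

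**Figure D3:**
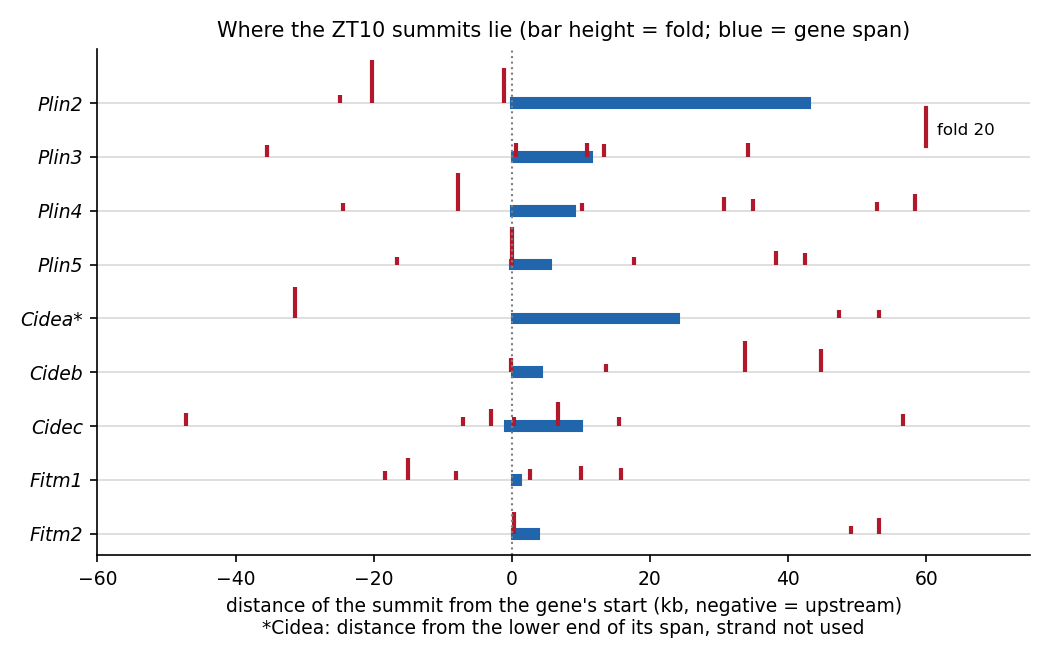
Position of each ZT10 summit relative to the nearer annotated start of its gene (kb, horizontal axis, negative upstream), with 1 row per gene; for Cidea it is the distance from the lower end of its span. Red bars rise with the fold, to the scale shown, and blue blocks are gene spans. Plin5, Fitm2, Cideb, Cidec and Plin3 have a summit within 1 kb of a start, while Plin4 has its strongest 7733 bp upstream.

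Cidea encodes the CIDE protein of brown fat, and its sites were all remote. It had 3 sites, the strongest 31408 bp from its span at chr18:67311210-67313221, inside Impa2, with a fold of 16.6 (14.9 to 18.4). The others lay inside Tubb6 with folds of 4.65 and 4.24. Since no summit lay within 10 kb, the fold of 16.6 is that of a site in a neighbouring gene.

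Cideb encodes the CIDE protein of hepatocytes, which acts in loading lipid onto very low density lipoprotein. Its site at the start, 109 bp upstream and inside the overlapping receptor gene Ltb4r2 (chr14:55757035-55759488), had a fold of 7.50 (159 fragments, 6.41 to 8.73). Stronger sites in reach lay 33748 bp downstream of the start, nearest Rabggta, with a fold of 16.0 (14.4 to 17.8), and 44742 bp downstream, inside the transglutaminase gene Tgm1, with 11.9. A site inside Dhrs1 had a fold of 4.53 over a local background 1.45 times the lowest, the only one of the 38 where that background was raised.

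Cidec, known in mouse also as Fsp27, encodes the CIDE protein of white fat that is also made in fatty liver. It had 7 sites, as many as Plin4, and 3 of them had Cidec as the nearest gene. The strongest lay inside the gene, 6756 bp downstream of the nearer start, with a fold of 12.6 (271 fragments, 11.2 to 14.2) at chr6:113426717-113432136. A site 2946 bp upstream had 9.06 (7.85 to 10.4), and the site 365 bp from the downstream start had 4.65 (3.81 to 5.63). The site 365 bp from a start was thus weaker than these 2 beyond counting error. The other 4 sites, inside other genes, had folds of 4.51 (Jagn1) and 6.67 (Il17rc) upstream, and of 6.07 (Arpc4) and 4.74 (Rpusd3) downstream. The interval of the Jagn1 site, 3.68 to 5.48, overlapped that of the site near the start.

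Fitm1 encodes the FITM protein of muscle and Fitm2 the one found in most tissues. The 6 sites around Fitm1 all had another gene nearer, and the strongest lay inside Dcaf11, 15035 bp upstream of Fitm1, with a fold of 11.5 (10.2 to 13.0). The site closest to Fitm1, 2701 bp from its start, lay 119 bp from Psme1 and had a fold of 5.80. Fitm2 had its strongest site at its own start, 265 bp downstream of it at chr2:163471015-163473143, with a fold of 11.3 (242 fragments, 9.95 to 12.8). Its other sites, at 4.10 and 8.14, lay 45.2 and 49.3 kb away, near or in Oser1. Fitm1 and Cideb lie 177 kb apart on chromosome 14 and shared no site.

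Ranked by the strongest fold within 50 kb, the order was Plin2 (22.6), Plin4 and Plin5 (19.8, the same site), Cidea (16.6), Cideb (16.0), Cidec (12.6), Fitm1 (11.5), Fitm2 (11.3) and Plin3 (7.36). Neighbours in this order overlapped in their counting intervals except Cideb with Cidec and Fitm2 with Plin3. Ranked by sites inside the span, Plin5 (19.8) was above Cidec (12.6) beyond its interval, Cidec and Fitm2 (11.3) overlapped, and Plin3 (7.36) was lower. The median strongest fold was 16.0 over the 9 genes and 10.0 over the 15244 genes with a site, and 8 of 9 were above that median of all genes. The member closest to that median was Fitm2, at percentile 57.6, and Plin2 stood highest, at percentile 92.0. With sites inside the span only, the medians were 12.0 over 4 genes and 7.41 over all genes, and at 2 kb they were 9.40 over 8 genes and 7.31. At 10 kb they were 12.0 over 8 genes and 7.82. At that reach Cideb (7.50), Plin3 (7.36) and Fitm1 (7.22) were below the median of all genes. The droplet genes had a median of 5 sites, against 2 over all genes and 4 over genes with at least 1.

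**Figure D4:**
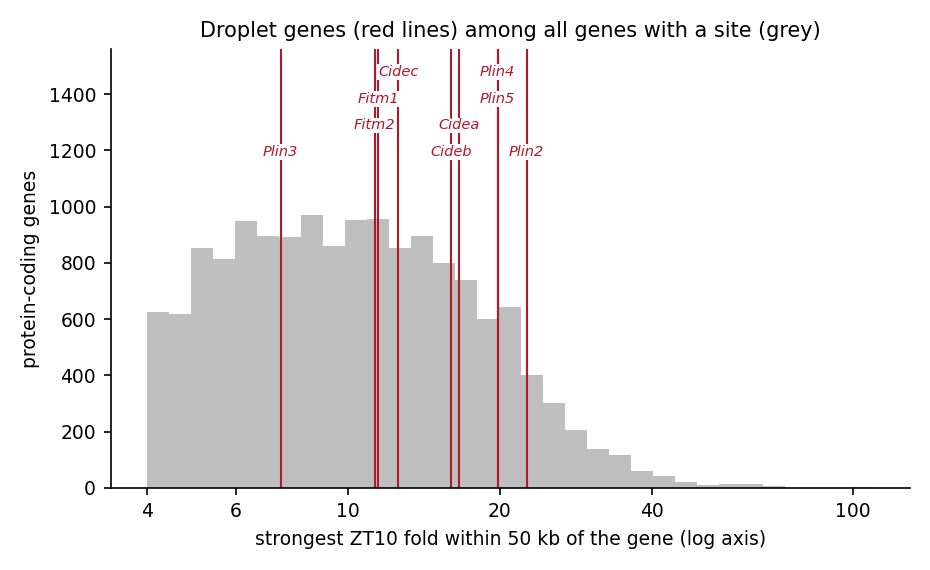
Strongest ZT10 fold within 50 kb (horizontal log axis) of the 9 droplet genes (red lines) and of all 15244 protein-coding genes with a site (grey bars, number of genes on the vertical axis). Plin3 at 7.36 is the only line below the median of all genes, 10.0, and Plin2 at 22.6 is the highest.

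The reach decides which sites enter. The last inside it were sites at 49271 bp from Fitm2 (fold 8.14), 49209 bp from Plin4 (8.83) and 47177 bp from Cidec (6.67). The first beyond it were at 51286 bp from Plin2 (5.06), 51654 bp from Cidec (6.30) and 53119 bp from Plin5, inside Tnfaip8l1 (16.0).

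Other genes of droplet and triglyceride metabolism are set beside all genes, of which 70.5% had a ZT10 site within 50 kb, with a median strongest fold of 10.0. Genes of lipolysis and its control had one at 10 of 10, with a median strongest fold of 19.3, led by Pnpla3, a droplet protein related to the main triglyceride lipase (39.8), the carboxylesterase gene Ces1d (32.8) and Mgll, the monoglyceride lipase (22.2). Genes of triglyceride synthesis had one at 12 of 12, with a median of 14.7, led by the acyltransferase gene Agpat2 (26.9), the phosphatidate phosphatase gene Lpin1 (19.4) and Gpat4, another acyltransferase gene (18.7). Other droplet proteins had one at 10 of 12 (83.3%), nearer to the share of all genes, with a median of 11.5 over those 10, led by Plin1, the perilipin of adipocytes (25.3), Faf2 (21.7) and Hsd17b13 and Hsd17b11, hydroxysteroid dehydrogenase relatives with the same value (13.9). Rab18 and Lpcat2 had none. Apolipoprotein genes and Mttp had one at 13 of 13 with a median of 19.2. They were led by Apoa5, Apoa1, Apoc3 and Apoa4, neighbours with the same value (31.2), and Apob, the structural protein of very low density lipoprotein (25.3). Apoe, Apoc4, Apoc1 and Apoc2 also had 1 value in common, the median of 19.2, so that median does not rest on 13 separate values. Several leading values were those of sites more than 10 kb from the gene. Within 10 kb Plin1 had 10.9, Faf2 10.2, Hsd17b11 6.76, Apob 8.46 and Apoa4 5.61. Also lower at that reach were Pnpla3 (31.8), Ces1d (24.9), Apoa5 (14.4), Apoa1 (16.4) and Apoc3 (16.4). Mgll, Agpat2, Lpin1, Gpat4 and Hsd17b13 kept their values. Within 50 kb the 9 genes of perilipins, CIDE and FITM proteins had a median of 16.0 that lay between those of these lists. Plin4 and Plin5 share their value, and without Plin4 the median was 14.3, below that of triglyceride synthesis. Within 10 kb the median was 12.0 over 8 of the 9 genes. At that reach it was 17.7 for lipolysis and its control, 14.6 for triglyceride synthesis, 14.4 for apolipoproteins and Mttp and 8.14 for other droplet proteins. No test was run between lists.

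Genes of proteins secreted by hepatocytes are described next, since the labelled tissue was liver. All 8 had a ZT10 summit within 10 kb, against 54.5% of all genes, with a median strongest fold of 20.8 at that reach; within 50 kb the fibrinogen genes Fgg, Fga and Fgb led with the same value (31.9). Of 6 adipocyte genes all but Retn had one within 10 kb, with a median of 10.9. Over all genes with a summit at that reach the median was 7.82. The promoter window lay under a peak at 6 of the 6 hepatocyte genes with an annotated start and at 0 of the 5 adipocyte genes with one, against 34.9% of all genes. A summit within 1 kb of the start was found at 2 of those 6 and 0 of those 5, against 34.5% of all genes. By that measure the hepatocyte genes were near the background. Within 50 kb the adipocyte genes Cfd (65.9), Plin1 (25.3) and Adipoq (18.9) led. Within 10 kb their strongest folds were 15.4, 10.9 and 11.4, so the higher values are those of sites farther from these genes. A peak list gives no expression, so neither list measures which cells were present.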

How the data were processed

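REV-ERBα binding was measured by ChIP-seq with anti-HA beads in liver of 3HA-tagged mice, 4 samples at ZT22 and 4 at ZT10. Per the labels' protocols, chromatin was fixed with formaldehyde and EGS, and Tn5 was used for library making. The submitters' processing notes name BWA 0.7.17, MACS2 2.1.2 and the build mm10, with no role or order. Which library served as control is not stated in the sources used here.

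The deposited lists, 1 per time from pooled samples, give each peak's fold (a ratio, summit over local background), a −log10 p, a −log10 q and a score, which is 10 times the −log10 q and was not used. These are the authors' own values, used to describe peaks within a list. Spans are those of RefSeq (GRCm38.p6) and starts were read from its promoter windows, and 1 older gene name was matched as a synonym. Fragments were solved with a pseudocount of 1 and the Poisson upper tail, at a lowest background of 4.14. Counts came out whole to within 0.1 at 89.7% of ZT10 peaks and at 37 of the 38 droplet sites; the other site had a higher background. Intervals are exact Poisson at 95%, cover counting error only and hold the background fixed. Code ran in Python 3.11.15 with SciPy 1.17.1 and was tested on simulated data.

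The genes and lists were chosen with earlier results of these data known. Named were all 9 genes with their sites, the gene nearest to a site, and the 3 leading genes of each other list with members that lack a site where 5 or fewer do. Genes tied with a leader were named too, as were the apolipoprotein genes tied at the median of their list. Alternatives changed the reach, the −log10 q limit, overlap in place of summits, the nearest gene, 1 row per interval and the pseudocount.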

Additional observations from a re-analysis of the deposited data

How the results depend on the processing

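The count of droplet genes with a ZT10 summit was 9 as reported, 8 at reaches of 2 and 10 kb, and 9 at 100 kb, also with peak overlap and with −log10 q limited to 10 or more. It was 5 where only the gene nearest to a summit counted and 4 with sites inside the span only, against 36.2% of all genes inside spans. For the nearest-gene rule, overlap and the −log10 q limit no share of all genes is given here. Those counts thus cannot be set against a background. Distinct sites numbered 11 at 2 kb, 17 at 10 kb and 67 at 100 kb, and 10 where the nearest gene alone counted, against 38, and 26, 39 and 38 with the −log10 q limit, with overlap and with 1 row per interval. The median strongest fold was 9.40 at 2 kb, 12.0 at 10 kb, 12.6 for nearest genes alone, 12.0 inside spans and 14.3 without Plin4, against 16.0, and 16.0 and 16.6 with the −log10 q limit and at 100 kb. Sites shared by Plin4 and Plin5 or other members numbered 1 at 10 kb and 14 at 100 kb, against 5. The 0 at ZT22 held at 100 kb. With a pseudocount of 0, the fragment counts of 0 of 38 sites were whole, against 37 with a pseudocount of 1. Of 36 settings tried for the strongest fold of single genes, 6 left the gene no site: Cidea at 2 and 10 kb, and Cidea, Cideb, Fitm1 and Plin4 with nearest genes alone. Of the other 30, 19 stayed within the counting interval, 7 fell below it and 4 rose above it. At 100 kb a site of fold 32.6 became the strongest of Plin3, Plin4 and Plin5. The alternatives inside spans and without Plin4 were added once the data had been seen. The reach sets which sites are counted. A gene's strongest fold changes with it only where the strongest site leaves or a stronger one enters. No paired analysis was possible because the samples of each time were pooled into 1 list, and no replicate could be left out.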
